A study of Eriocheir sinensis with 6 samples.

Results

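In the Chinese mitten crab, Eriocheir sinensis, 48 of 18729 listed gene models were much lower in muscle of the post-molt period than in that of the pre-molt period. They were chosen by their expression values, in units of FPKM (sequenced fragments per unit of gene length and of library size). The mean post-molt FPKM could be at most 0.25 of the pre-molt mean, the pre-molt mean had to reach 20, and the highest post-molt crab had to lie below the lowest pre-molt crab. Genes on 5 sequences (CM024112.1, CM024108.1, CM024135.1, CM024166.1 and CM024162.1) were left out. The direction and the separation of the stages are therefore fixed by this choice, and the values below describe the chosen genes without a test.

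Crustaceans grow by shedding the shell. In the pre-molt period molting hormones of the ecdysteroid family increase in the blood, a new shell forms under the old one and muscle protein is broken down in the claws, so that the limb can be pulled through its narrow joints. After the shell is shed, in the post-molt period, the new shell hardens and muscle mass is rebuilt. The files give these gene models no name or function beyond an identifier, so no role can be given to any of the 48. The molting, muscle, cuticle, blood cell, hepatopancreas and nerve genes that would place them in pathways or check the tissue could not be looked up.

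The post-molt group had 3 muscle libraries and the pre-molt group had 3. Per the labels and the methods, the animals of both groups were healthy farmed juveniles without any treatment, kept at 20 °C under natural light, weighing 8.41 ± 1.47 g on average, and each library came from 1 crab. The methods name the walking legs as the source of the muscle, in the account of the molt period, and the sub-period within the pre-molt period was not stated. The stages also differ in physiological state, so stage and any unlabelled difference in handling between the collections cannot be told apart.

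Post-molt libraries held 4168743 to 5117141 recovered fragments, against 5810059 to 6768298 in pre-molt libraries. The size by which the deposited FPKM were divided was 0.280 to 0.344 of these totals after the molt, against 0.633 to 0.819 before it, and the FPKM of a post-molt library summed to 2772125 to 3753646, against 1115974 to 1463554 for a pre-molt library. For a gene of 1036 bases, the median length of the 48, a single fragment was therefore worth 0.549 to 0.826 FPKM in a post-molt library and 0.195 to 0.262 FPKM in a pre-molt library, so that low values were measured less finely after the molt. When all libraries were brought to a common FPKM sum, the median log2 fold change (post-molt over pre-molt) over all genes tested moved from -0.09 to -0.78, and the median level of the same 48 genes after the molt moved from 15.01% to 5.84% of the pre-molt level. In whole muscle, fewer cells of a type and less RNA per cell cannot be told apart.

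How common a fall of this size was depended on the scaling of the libraries. On the deposited FPKM, of 2437 genes with a pre-molt mean of at least 20 FPKM on the sequences kept, 48 met the rule, which is 1.97%. Gene models that the authors added to the predicted set count as kept where their sequence is not given, here and below. The mirrored rule, with the stages exchanged, was met by 405 of 2873 genes, or 14.1%. At a common FPKM sum, the rule was met by 318 of 2022 genes, or 15.7%, and the mirrored rule by 173 of 1245, or 13.9%. The limit of 20 was there applied to the rescaled values. Another 4 genes met the level and the ratio but had a post-molt crab at or above the lowest pre-molt crab, and 17 genes on the sequences left out met the values. With limma on log2(FPKM + 1), 45 of the 48 were called lower in post-molt muscle, beside 1.60% of all genes tested (280 of 17465, but 5889 at a common FPKM sum). With edgeR on the recovered fragments, 48 of 48 were called lower, beside 3.43% (347 of 10126). With DESeq2 on them, 47 of the 48 were called lower, beside 289 of 15441 genes tested. Both scale the libraries by factors of their own, and their median log2 fold changes over all genes tested were -0.02 and -0.07. Nothing is read from these counts, because the same contrast chose the genes. The 3 genes that limma did not call were evm.TU.CM024134.1.374, evm.TU.CM024154.1.48 and evm.TU.CM024156.1.447. The number called over all genes fell to 108, 154 and 104 without pre-molt replicates 1, 2 and 3, and leaving out any 1 library left 35 to 45 of the 48 called. The median log2 fold change on the log2(FPKM + 1) scale was -2.99 over the 48 and -0.09 over all genes tested.

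The pre-molt levels of the 48 genes spanned 21.3 to 7739 FPKM, with a median of 98.9 FPKM. There were 12 genes from 20 to under 50 FPKM, 12 from 50 to under 100, 16 from 100 to under 1000 and 8 at 1000 or more. In the order of expression within a library, 0 of the 48 were among the 100 highest genes in each post-molt library, against 5, 5 and 6 in pre-molt replicates 1, 2 and 3. Their median rank was 5725.5, 4136 and 5416 in post-molt replicates 1, 2 and 3, against 755.5, 790.5 and 720 in the pre-molt replicates. The median of the set thus stood above the middle of this order in every post-molt crab, and near its upper end in every pre-molt crab.

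**Figure D1:**
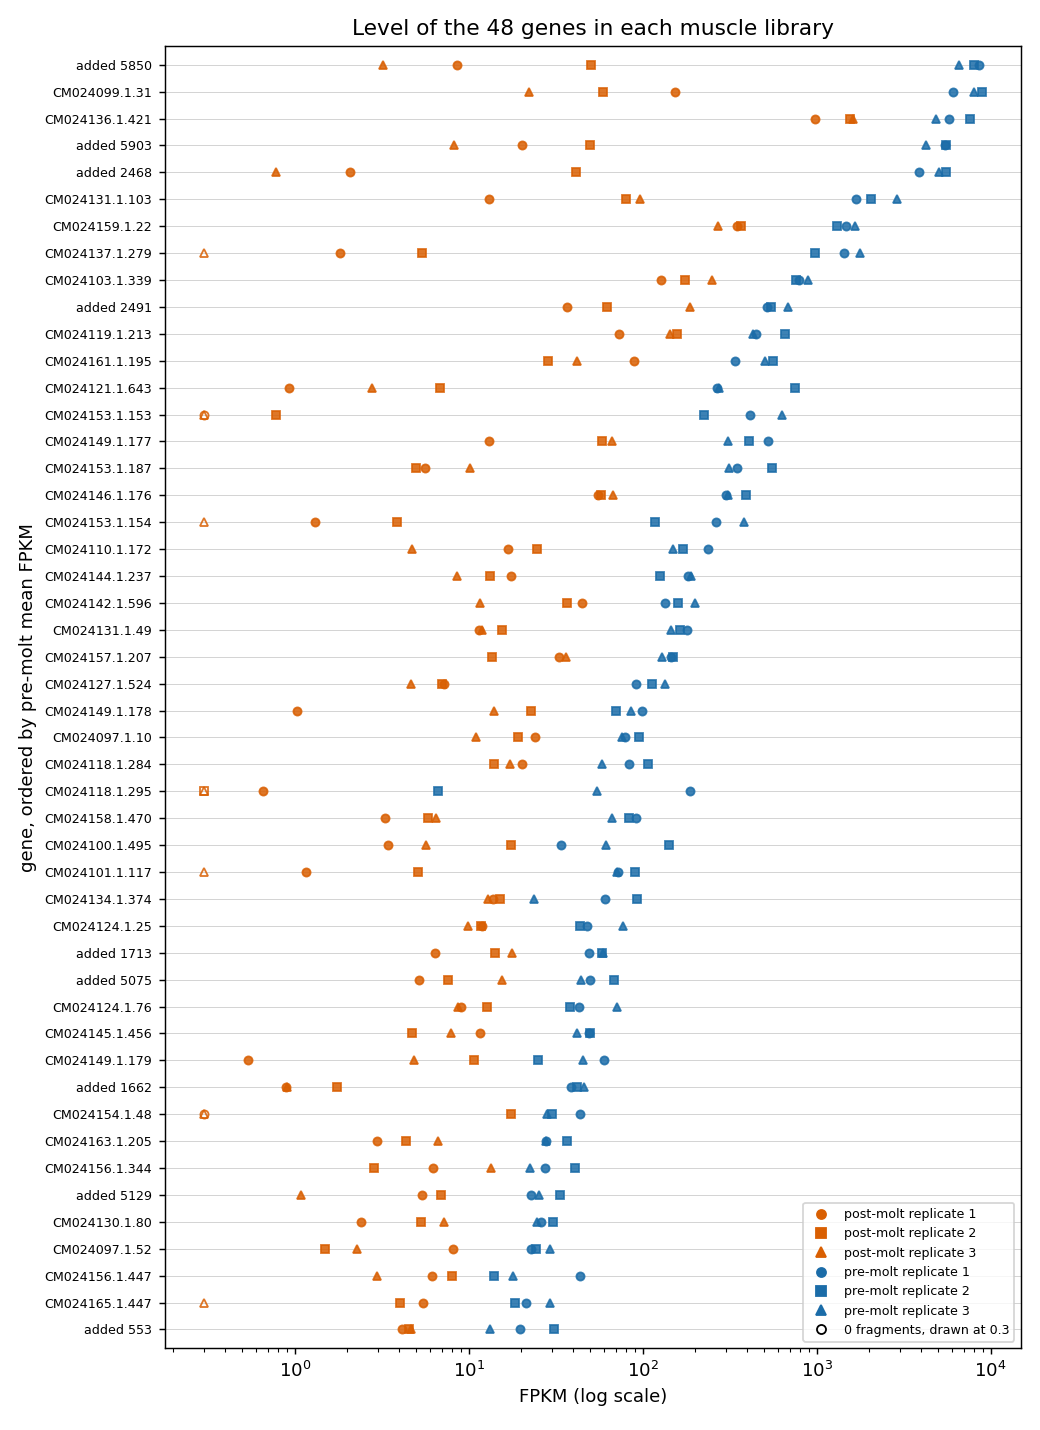
FPKM of each of the 48 genes (log axis) in 3 post-molt libraries (orange) and 3 pre-molt libraries (blue), with genes ordered by their pre-molt mean, the prefix evm.TU. left out of the names and open symbols for libraries with 0 fragments. Pre-molt means fell between 21.3 and 7739 FPKM, and no post-molt point reached the pre-molt points of its gene, as the rule requires.

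The highest of the 48 before the molt was not a predicted gene. The authors added gene models to the predicted set, and these carry only a running number as identifier, given here as "added model" with that number. Added model 5850 (797 bases, on sequence CM024158.1) had 8.56, 50.4 and 3.22 FPKM in post-molt replicates 1, 2 and 3, against 8549, 8064 and 6604 FPKM in pre-molt replicates 1, 2 and 3. All pre-molt crabs were high and close to each other, while the post-molt crabs differed among themselves, with replicate 2 highest. Its post-molt mean of 20.7 ± 25.8 FPKM was 0.268% of the pre-molt mean of 7739 ± 1013 FPKM (SD, n = 3 each).

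Added model 5903 (1458 bases) lies on the same sequence. It had 20.3, 49.9 and 8.22 FPKM in post-molt replicates 1, 2 and 3, against 5428, 5528 and 4232 FPKM in the pre-molt replicates. Added model 2468 (1092 bases, on CM024117.1) had 2.08, 41.4 and 0.784 FPKM in the post-molt replicates, against 3862, 5526 and 5069 FPKM before the molt. In all 3 of these added models post-molt replicate 2 was the highest post-molt crab and replicate 3 the lowest. The remaining level was 0.516% for added model 5903 and 0.306% for added model 2468. In added model 2468, 93.5% of the post-molt FPKM came from replicate 2 alone, with 54 fragments there against 4 and 1 in the other post-molt libraries.

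The strongest predicted gene, evm.TU.CM024099.1.31 (540 bases), had 154, 58.9 and 22.2 FPKM in post-molt replicates 1, 2 and 3, against 6052, 8868 and 7969 FPKM in the pre-molt replicates. Here replicate 1 was the highest post-molt crab, so the crab with the most signal left was not the same one for every gene. The post-molt mean was 78.2 ± 67.8 FPKM and the pre-molt mean 7629 ± 1438 FPKM (SD, n = 3 each), a remaining level of 1.03%.

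The gene evm.TU.CM024136.1.421 (1106 bases) differed from the others at this level in how much was left. It had 973, 1547 and 1609 FPKM in the post-molt replicates, against 5775, 7648 and 4834 FPKM in the pre-molt replicates. It stayed strongly expressed in every post-molt crab, with a post-molt mean of 1376 ± 350 FPKM and a pre-molt mean of 6086 ± 1432 FPKM (SD, n = 3 each), which leaves 22.6%. It passed the rule by a small margin, and without post-molt replicate 1 or pre-molt replicate 2 it no longer met the ratio.

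A further 3 genes exceeded 1000 FPKM before the molt. The short gene evm.TU.CM024131.1.103 (303 bases) had 13.1, 80.1 and 96.0 FPKM in the post-molt replicates, against 1691, 2060 and 2896 FPKM in the pre-molt replicates, with 2.85% left. The gene evm.TU.CM024159.1.22 (1553 bases) had 348, 366 and 269 FPKM after the molt, against 1468, 1310 and 1671 FPKM before it, with 22.1% left. The gene evm.TU.CM024137.1.279 (624 bases) had 1.82, 5.37 and 0 FPKM after the molt, against 1430, 973 and 1772 FPKM before it, with 0.172% left. These genes, similar in their pre-molt level, thus covered nearly the whole range of remaining signal, and the last rested on 6 post-molt fragments in all against 11736 pre-molt fragments.

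Below 1000 FPKM, some genes kept a clear level in every post-molt crab. The gene evm.TU.CM024103.1.339 (912 bases) had 128, 176 and 250 FPKM in the post-molt replicates, against 791, 762 and 889 FPKM in the pre-molt replicates. Added model 2491 (4038 bases, the longest of the 48, on CM024117.1) had 36.6, 62.0 and 187 FPKM after the molt, against 516, 548 and 687 FPKM before it. The gene evm.TU.CM024119.1.213 (783 bases) had 73.3, 158 and 143 FPKM after the molt, against 449, 656 and 431 FPKM before it. The pre-molt crabs were close together in the first of these, with a coefficient of variation (SD over mean) of 8.16%, and post-molt replicate 1 was the lowest post-molt crab in each. The remaining levels were 22.7% for evm.TU.CM024103.1.339, 16.3% for added model 2491 and 24.4% for evm.TU.CM024119.1.213.

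Fragments were few after the molt for others in this range. The gene evm.TU.CM024121.1.643 (613 bases) had 0.927, 6.83 and 2.79 FPKM in the post-molt replicates, against 267, 746 and 274 FPKM in the pre-molt replicates, with 8 post-molt fragments in all. The gene evm.TU.CM024161.1.195 (204 bases, the shortest of the 48) had 89.1, 28.7 and 42.0 FPKM after the molt, against 338, 564 and 508 FPKM before it. The high post-molt values of this short gene came from 49 fragments, since a fragment weighs more in a short gene.

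Among the weakest predicted genes of the 48, with pre-molt means below 30 FPKM, 2 varied little among the pre-molt crabs. The gene evm.TU.CM024097.1.52 (1122 bases) had 8.10, 1.49 and 2.29 FPKM in the post-molt replicates, against 22.7, 24.5 and 29.5 FPKM in the pre-molt replicates. The gene evm.TU.CM024130.1.80 (475 bases) had 2.39, 5.29 and 7.21 FPKM after the molt, against 26.1, 30.3 and 24.7 FPKM before it. Their pre-molt coefficients of variation were 13.8% and 10.9%, and the post-molt values rested on 21 fragments for the first and 9 for the other.

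Another 15 genes, 12 predicted and 3 added, held none of the extremes of level, ratio or spread. The predicted ones were evm.TU.CM024153.1.187, evm.TU.CM024146.1.176, evm.TU.CM024110.1.172, evm.TU.CM024144.1.237, evm.TU.CM024142.1.596, evm.TU.CM024127.1.524, evm.TU.CM024097.1.10, evm.TU.CM024158.1.470, evm.TU.CM024124.1.25, evm.TU.CM024124.1.76, evm.TU.CM024145.1.456 and evm.TU.CM024163.1.205, and the added models were 1662, 5075 and 5129. Their means were 1.18 to 60.4 FPKM in post-molt muscle, against 27.2 to 405 FPKM in pre-molt muscle, with 1.70% to 21.6% left. None of them was at 0 in a post-molt library, and their pre-molt coefficients of variation stayed between 8.19% and 34.7%. The lowest pre-molt crab was 2.83-fold to 31.0-fold above the highest post-molt crab in these 15.

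The level left after the molt had a median of 15.01% of the pre-molt level, that is a 6.66-fold lower mean in post-molt muscle, and ranged from 0.0616% to 24.8%. Over all genes with a pre-molt mean of at least 20 FPKM the median was 101%, and at a common FPKM sum it was 41.3% for the same genes. Of the 48, 8 genes kept at most 1%, 5 kept over 1% to 5%, 5 kept over 5% to 10%, and 30 kept over 10% to 25%, of which 12 kept at least 20%. The genes that lost most were the higher ones: the median pre-molt mean was 911 FPKM in the lowest of these classes, then 405, 164 and 57.6 FPKM in the following ones. A low pre-molt level limits how small a remaining share can be seen, and how far this shaped the order of the classes was not tested.

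**Figure D2:**
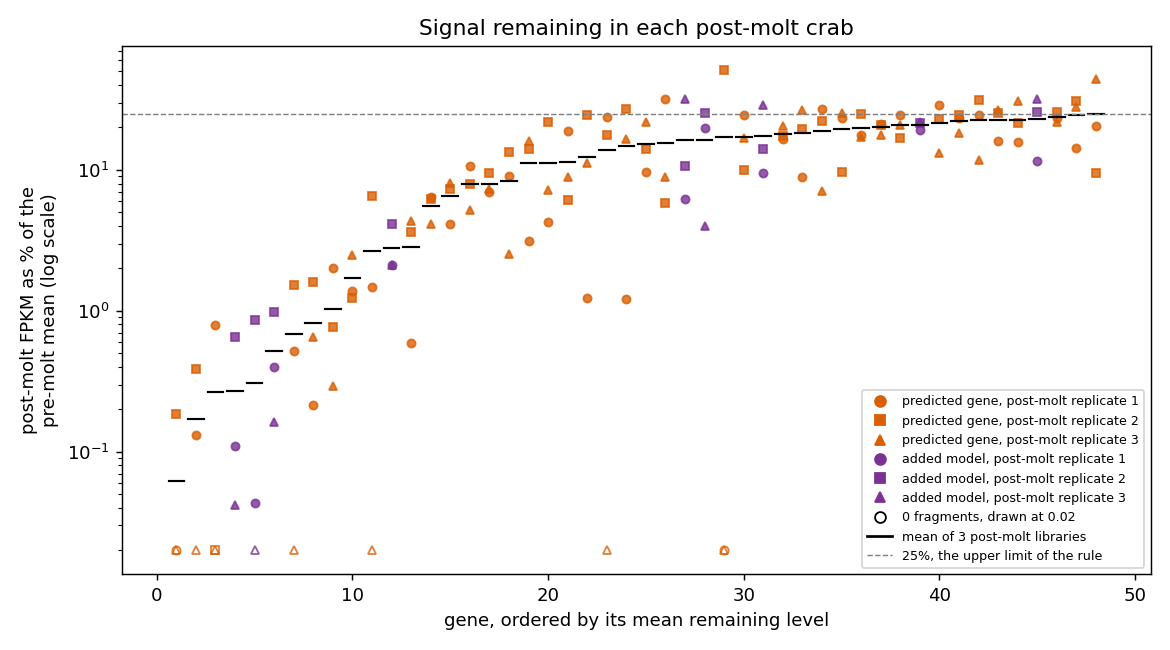
Post-molt FPKM of each post-molt crab as a percentage of the mean pre-molt FPKM (log axis) for the 48 genes in order of their mean remaining level. Predicted genes are in orange, added models in purple, with bars for the mean of 3 libraries and a dashed line at the 25% limit of the rule. Open symbols stand for 0 fragments or a value under the lowest level drawn. The latter is post-molt replicate 3 of added model 2468, with 1 fragment (0.0163%). The means ran between 0.0616% and 24.8%. Genes with wide and genes with narrow spread of their points occurred both where little was left and nearer the limit.

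Read counts set how firmly these shares can be stated. The 48 genes had 1 to 6017 fragments each in the post-molt libraries together (median 46.5), against 64 to 95900 in the pre-molt libraries together (median 1882.5). In all post-molt libraries together, 12 genes had 10 fragments or fewer and 3 had 3 or fewer. At least 1 post-molt library was at 0 for 7 genes, and 41 genes were above 0 in every post-molt crab. The zeros were uneven, with 2, 1 and 7 of the 48 genes at 0 in post-molt replicates 1, 2 and 3.

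The smallest remaining level belonged to evm.TU.CM024153.1.153 (1069 bases), with 0, 0.783 and 0 FPKM in the post-molt replicates, against 416, 225 and 628 FPKM in the pre-molt replicates. This was 1 fragment after the molt against 6220 before it. Scaled by the sizes behind the deposited FPKM, the ratio of fragments was 0.0512%. Its exact 95% interval of 0.0013% to 0.286% covers counting error only and keeps this scaling. The gene evm.TU.CM024118.1.295 (1723 bases) had 0.660, 0 and 0 FPKM after the molt, against 188, 6.62 and 54.3 FPKM before it. Its 2 post-molt fragments against 1966 gave a ratio of 0.324%, with an exact 95% interval of 0.0392% to 1.17%. The gene evm.TU.CM024165.1.447 (a recovered length of 207 bases) had 5.49, 4.04 and 0 FPKM after the molt, against 21.4, 18.4 and 29.3 FPKM before it. With 3 post-molt fragments against 64 its ratio was 14.9%, with an exact 95% interval of 3.002% to 45.7%. On the deposited scale, counting error for this gene thus allows a level above the 25% limit. It did so for others of the 48 as well, though not for all. The upper end of the interval was 40.7% for added model 553, on 10 post-molt fragments. It was 26.1% for evm.TU.CM024119.1.213, on 380, but 22.8% for evm.TU.CM024136.1.421, on 6017.

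The crab with the most signal left varied from gene to gene. Post-molt replicates 1, 2 and 3 were the highest post-molt crab for 12, 21 and 15 of the 48 genes, against 41.1%, 29.2% and 29.7% of all genes with a pre-molt mean of at least 20 FPKM. The median gene kept 9.29%, 13.7% and 8.94% of its pre-molt mean in post-molt replicates 1, 2 and 3. For 9 genes a single crab held most of the post-molt FPKM, at a minimum of 2 parts in 3. The clearest case with many fragments was added model 2468, described above. In evm.TU.CM024101.1.117 (492 bases) the post-molt replicates had 1.16, 5.10 and 0 FPKM, against 72.6, 90.6 and 71.0 FPKM in the pre-molt replicates. In evm.TU.CM024154.1.48 (288 bases) they had 0, 17.4 and 0 FPKM, against 43.9, 30.2 and 28.1 FPKM. Both genes had their highest post-molt value in replicate 2, but on 4 and 6 fragments in all. The spread among crabs, as the median coefficient of variation over the 48, was 56.6% in post-molt and 22.1% in pre-molt muscle. Over all genes with a pre-molt mean of at least 20 FPKM it was 28.6% in post-molt and 21.3% in pre-molt muscle. The 48 were chosen to be lower after the molt than before it, with a median of 46.5 post-molt fragments, so counting error enters the 56.6%. How far it does was not tested.

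The 48 genes held 0.0797%, 0.0902% and 0.0806% of all FPKM in post-molt replicates 1, 2 and 3, against 2.96%, 3.22% and 3.75% in pre-molt replicates 1, 2 and 3. The means were 0.0835 ± 0.00579% in post-molt and 3.31 ± 0.403% in pre-molt muscle (SD, n = 3 each). These shares do not depend on how a library was scaled, and as shares of recovered fragments they were 0.0965 ± 0.0104% in post-molt and 2.92 ± 0.293% in pre-molt muscle (SD, n = 3 each). When the rule was applied without 1 library, the post-molt share moved most: to 0.0454% without post-molt replicate 1, 0.223% without post-molt replicate 3 and 0.0415% without pre-molt replicate 2. In the first and the last of these settings evm.TU.CM024136.1.421 was no longer chosen.

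**Figure D3:**
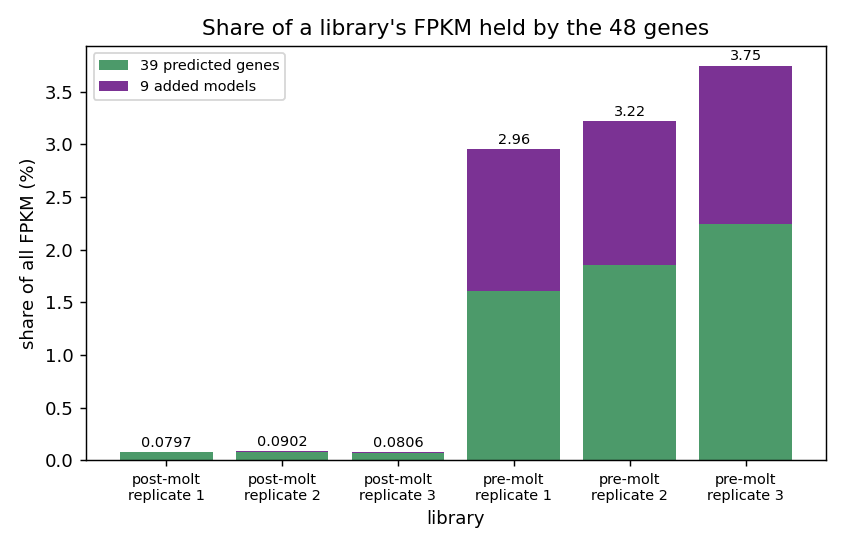
Share of all FPKM of a library held by the 48 genes, in percent, for 3 post-molt and 3 pre-molt libraries, with the 39 predicted genes in green and the 9 added models in purple stacked on them. The post-molt bars reach 0.0797% to 0.0902% and the pre-molt bars 2.96% to 3.75%, and the purple part is a large part of the bar before the molt only.

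A few genes made up most of this share. In each library, the 5 genes that were highest in it held 76.6%, 75.4% and 81.2% of the FPKM of the 48 in post-molt replicates 1, 2 and 3, against 72.8%, 75.6% and 68.6% in the pre-molt replicates. The 5 genes with the highest pre-molt means held 52.4%, 56.6% and 54.3% of it in the post-molt replicates, and they are the 5 highest of every pre-molt library. The gene evm.TU.CM024136.1.421 alone held 44.0%, 50.1% and 53.1% of it in the post-molt replicates, against 14.2%, 16.2% and 11.6% in the pre-molt replicates. What was left of the set after the molt was thus to a large extent this single gene. Among the genes on the sequences left out, evm.TU.CM024112.1.203, chosen after its values were seen, held 0.341%, 0.405% and 0.248% of all FPKM in the post-molt replicates, against 6.36%, 5.31% and 5.77% in the pre-molt replicates, more than the 48 together.

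Of the 48, 39 were predicted genes and 9 were added models, a share of 18.75% added. Added models were 18.4% of all genes listed (3451 of 18729) and 6.25% of those with a pre-molt mean of at least 20 FPKM (170 of 2720). Counted the other way, 5.49% of the 164 added models at this level not known to lie on a sequence left out were among the 48. For predicted genes on the sequences kept it was 1.72% of 2273. The sequence is given for only 253 of the 3451 added models, so some of the 164 may lie on sequences left out. The added models were unevenly spread in level, since 3 of the 5 genes above 4000 FPKM were added models, while the median pre-molt mean was 55.6 FPKM over the added models and 113 FPKM over the predicted genes. The median remaining level was 16.3% for added models and 14.9% for predicted genes, and 3 of the 8 genes with at most 1% left were added models. Added models held 4.05%, 7.74% and 7.89% of the FPKM of the 48 in post-molt replicates 1, 2 and 3, against 45.5%, 42.2% and 40.1% in the pre-molt replicates. Before the molt this came almost entirely from added models 5850, 5903 and 2468.

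The remaining added models were weaker. Added model 1713 (530 bases, on CM024111.1) had 6.43, 14.2 and 17.8 FPKM in the post-molt replicates, against 48.9, 58.5 and 59.4 FPKM in the pre-molt replicates. Added model 553 (551 bases, on CM024099.1), the lowest of the 48, had 4.13, 4.56 and 4.66 FPKM after the molt, against 19.7, 31.1 and 13.2 FPKM before it. The post-molt crabs were even in the last of these, and the pre-molt crabs were not. These values rested on only 4, 3 and 3 fragments in the post-molt replicates, against 49, 63 and 36 in the pre-molt replicates. The added models 1662, 5075 and 5129 had pre-molt means below 60 FPKM as well. The gene length did not set the 48 apart, with a median of 1036 bases against 1034 bases over all genes with a pre-molt mean of at least 20 FPKM and 1149 bases over all genes listed. Median lengths were 1092 bases for the added models and 1029 bases for the predicted genes among the 48.

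Spread among the pre-molt crabs was moderate for most of the 48. The coefficient of variation was below 25% for 29 genes and above 50% for 6, with a range of 7.92% to 113%. Its median was 15.5% for added models and 24.5% for predicted genes. Pre-molt replicate 2 was the highest pre-molt crab for 22 of the 48 genes, and replicates 1 and 3 for 10 and 16, while replicate 2 was highest for 52.2% of all genes with a pre-molt mean of at least 20 FPKM. The most common order was replicate 2 above 1 above 3, in 14 genes, and each of the other possible orders occurred in 4 to 9 genes. The 48 genes thus did not share 1 order of crabs.

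**Figure D4:**
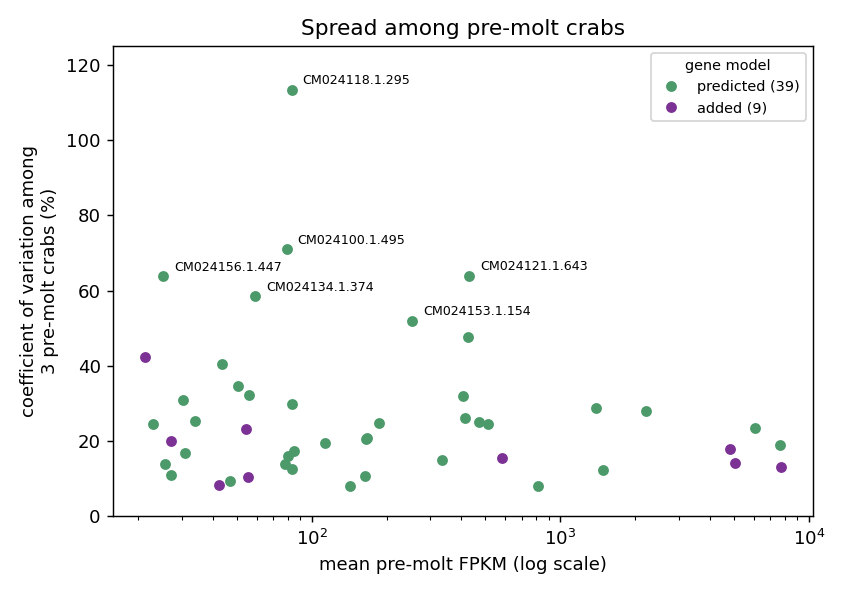
Coefficient of variation among the 3 pre-molt crabs, in percent, against the mean pre-molt FPKM (log axis) for 39 predicted genes (green) and 9 added models (purple). Most points lie below 25%, and evm.TU.CM024118.1.295, named in the plot without its prefix, stands highest at 113%.

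The widest spread was in evm.TU.CM024118.1.295, whose 188, 6.62 and 54.3 FPKM in pre-molt replicates 1, 2 and 3 differed by up to 28.4-fold. Even its lowest pre-molt crab lay 10.04-fold above its highest post-molt crab. The gene evm.TU.CM024100.1.495 (3161 bases) had 3.42, 17.5 and 5.69 FPKM in the post-molt replicates, against 33.9, 142 and 61.9 FPKM in the pre-molt replicates. Replicate 2 was the highest crab within each stage, and the pre-molt crabs differed by up to 4.205-fold. The gene evm.TU.CM024156.1.447 (2303 bases) had 6.17, 7.995 and 2.97 FPKM after the molt, against 43.8, 14.0 and 18.1 FPKM before it. The gene evm.TU.CM024134.1.374 (330 bases) had 13.8, 15.2 and 13.0 FPKM after the molt, against 60.5, 93.1 and 23.9 FPKM before it. In these genes 1 pre-molt crab carried much of the mean, and the narrowest gap of all 48 between the lowest pre-molt and the highest post-molt crab, 1.57-fold, was in evm.TU.CM024134.1.374. Over the 48 this gap had a median of 3.60-fold and reached 288-fold in evm.TU.CM024153.1.153.

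The 48 genes lay on 32 of the 67 chromosome sequences kept, with 1 gene on 20 sequences, 2 on 8 and 3 on 4. The order of predicted genes along a sequence was read from the number that ends their identifier. A listed neighbour existed for 34 of the 39 predicted genes. Of 43 neighbours that were not themselves among the 48, 32 had a pre-molt mean below 20 FPKM, 28 had a lower mean after the molt than before it, 5 were at 25% or less of their pre-molt mean and 5 were at least 4-fold higher in post-molt muscle. These counts are 74.4%, 65.1%, 11.6% and 11.6% of the neighbours, against 83.3%, 51.5%, 5.51% and 9.23% of all predicted genes listed, and nothing particular to the neighbours is read from them.

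Exceptions were 2 stretches with 5 of the 48 genes next to each other. On CM024153.1, evm.TU.CM024153.1.154 (867 bases) follows evm.TU.CM024153.1.153. It had 1.31, 3.86 and 0 FPKM in the post-molt replicates, against 262, 118 and 381 FPKM in the pre-molt replicates. Both genes were highest in pre-molt replicate 3, then 1, then 2, and both had their only or highest post-molt value in replicate 2. The genes on either side, evm.TU.CM024153.1.152 and evm.TU.CM024153.1.155, differed little between the stages on the deposited FPKM scale. The mean was 24.99 FPKM after the molt against 30.8 FPKM before it for the first, and 1.70 FPKM against 1.95 FPKM for the other. The other had only 1, 7 and 4 fragments in post-molt replicates 1, 2 and 3.

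On CM024149.1, 3 of the 48 genes follow each other. The gene evm.TU.CM024149.1.177 (1266 bases) had 13.0, 58.2 and 66.9 FPKM in the post-molt replicates, against 525, 408 and 310 FPKM in the pre-molt replicates. The gene evm.TU.CM024149.1.178 (549 bases) had 1.04, 22.9 and 14.0 FPKM after the molt, against 99.4, 69.8 and 86.1 FPKM before it. The gene evm.TU.CM024149.1.179 (2109 bases) had 0.539, 10.7 and 4.87 FPKM after the molt, against 60.0, 24.998 and 45.1 FPKM before it. In all 3, replicate 1 was the lowest post-molt crab and replicate 1 the highest pre-molt crab, although the pre-molt means lay between 43.4 and 414 FPKM. Their remaining levels were close to each other, at 11.1%, 14.9% and 12.4%. Close to them on the same sequence, evm.TU.CM024149.1.175, chosen after its values were seen, went the other way, with 750, 408 and 294 FPKM in the post-molt replicates, against 10.8, 15.9 and 7.39 FPKM in the pre-molt replicates. Whether neighbouring models are parts of 1 transcript was not tested.

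**Figure D5:**
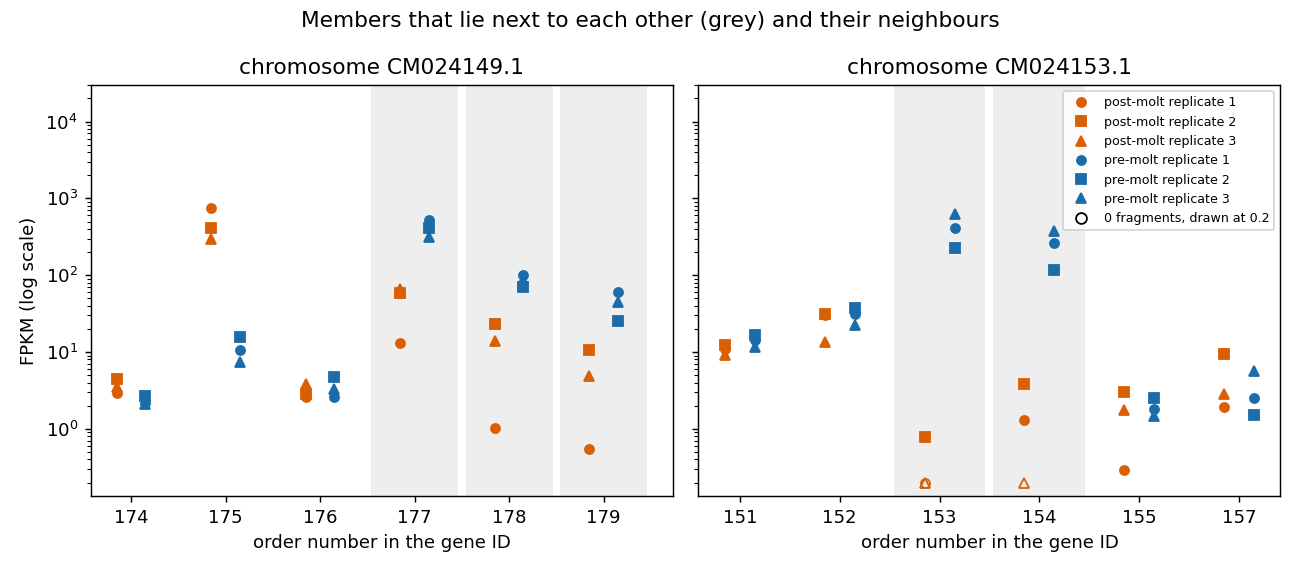
FPKM (log axis) of consecutive predicted genes on sequences CM024149.1 (left) and CM024153.1 (right), by the number that ends their identifier, in post-molt (orange) and pre-molt libraries (blue), with the chosen genes on grey and open symbols for 0 fragments. The 3 chosen genes on the left and the 2 on the right have all pre-molt points above all post-molt points, and gene 175 on the left has 294 to 750 FPKM after the molt and 7.39 to 15.9 FPKM before it.

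The numbers of the added models are grouped by sequence: among the 253 of 3451 added models whose sequence is given, the number ranges of the 76 sequences overlapped 0 times. Their order within a sequence was not examined. Added models 5853 and 5854, whose numbers are close to that of added model 5850 and which were chosen after their values were seen, changed in the opposite direction. Added model 5854 had 35270, 42891 and 38994 FPKM in post-molt replicates 1, 2 and 3, against 11.2, 12.4 and 15.6 FPKM in the pre-molt replicates. Added model 5853 had 3608, 3694 and 3136 FPKM after the molt, against 0.969, 1.13 and 1.06 FPKM before it. The preceding number, added model 2467, had 0, 0 and 0 FPKM in the post-molt replicates, against 7.57, 3.54 and 1.97 FPKM in the pre-molt replicates. The other listed added models within 4 numbers of model 2468 or 5903 were weak in both stages. Added model 5850, the highest of the 48, thus lay on the same sequence as models with the reverse pattern, in every crab of both stages.

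The study's own lists hold identifiers that changed between neighbouring stages of the molt cycle in both expression and chromatin accessibility. These lists hold 0 added models and were made in part from the libraries used here, so they are not independent evidence of direction. Of the 48, 8 were in the list falling between the pre-molt and the molt period, which is 4.88% of that list and 16.7% of the 48. The same list holds 0.860% of all genes listed and 2.94% of those with a pre-molt mean of at least 20 FPKM. They were evm.TU.CM024136.1.421, evm.TU.CM024131.1.103, evm.TU.CM024103.1.339, evm.TU.CM024161.1.195, evm.TU.CM024153.1.153, evm.TU.CM024131.1.49, evm.TU.CM024157.1.207 and evm.TU.CM024118.1.284. The list rising between the molt and the post-molt period also holds evm.TU.CM024131.1.103, and the list rising between the inter-molt and the pre-molt period also holds evm.TU.CM024136.1.421. The list rising between the pre-molt and the molt period, and both lists between the post-molt and the inter-molt period, hold 0 of the 48. The list falling between the molt and the post-molt period (24 genes) and that falling between the inter-molt and the pre-molt period (5 genes) hold 0 as well.

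The limits of the rule fell inside a continuous range of values. Just inside the ratio were evm.TU.CM024156.1.344 with 24.8% left, evm.TU.CM024119.1.213 with 24.4%, evm.TU.CM024134.1.374 with 23.7%, added model 1713 with 23.0% and evm.TU.CM024103.1.339 with 22.7%. Just outside it, among genes that met the other conditions, were added model 2803 with 25.1%, evm.TU.CM024120.1.251 with 25.3%, evm.TU.CM024119.1.408 with 25.6%, evm.TU.CM024132.1.340 with 25.8% and evm.TU.CM024146.1.216 with 26.8%. The gene evm.TU.CM024156.1.344 (1465 bases) had 6.21, 2.86 and 13.4 FPKM in the post-molt replicates, against 27.5, 40.6 and 22.5 FPKM in the pre-molt replicates. Its post-molt crabs differed more than the distance of its mean from the limit. The lowest pre-molt means inside the rule were 21.3 FPKM for added model 553, 23.0 FPKM for evm.TU.CM024165.1.447, 25.3 FPKM for evm.TU.CM024156.1.447, 25.6 FPKM for evm.TU.CM024097.1.52 and 27.0 FPKM for evm.TU.CM024130.1.80. Just below 20 FPKM were evm.TU.CM024119.1.660 at 19.9 FPKM, evm.TU.CM024123.1.267 at 19.7 FPKM, evm.TU.CM024139.1.94 at 19.0 FPKM, evm.TU.CM024106.1.76 at 15.9 FPKM and added model 485 at 15.4 FPKM. The gap between the genes inside and outside was thus small at both limits, and the number of genes chosen depends on where the limits are set.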

How the data were processed

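RNA-seq of crab muscle was compared between 3 post-molt and 3 pre-molt libraries, grouped by their titles. The submitters' processing notes and the methods name HISAT2 2.0.5 for alignment and featureCounts 1.5.0-p3 for counting. Fragments aligned to several places in the genome were left out by the authors, so genes with near-identical copies can be undercounted. Strand use in counting was not stated, so overlapping models are uncertain.

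For 18729 genes the authors deposited FPKM. They also deposited a comparison table of 1684 genes with a normalized signal per library (counts divided by a size factor), gene lengths, and their own fold changes and p-values, which were not used. Columns of the FPKM table carry another tissue prefix than the comparison table. They were matched by stage letter and number, and FPKM times length was proportional to the normalized signal to within a relative spread of 9.9e-10. From this, 100% of values were recovered as whole fragments within 0.001, and 98.6% of known lengths were recovered exactly. Intervals cover counting error only, since fragments were counted without molecular identifiers. Replicates all differed by more than sampling noise (lowest chi-square per degree of freedom 12.5).

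Genes were tested with limma 3.58.1 (R 4.3.3) on log2(FPKM + 1), with an intensity trend, for mean FPKM of 0.5 or more, and called at an adjusted p (Benjamini-Hochberg) of 0.05 and an absolute log2 fold change of 1. Fold changes (post-molt over pre-molt) understate the change of low genes. edgeR 4.0.16 and DESeq2 1.42.0 on recovered fragments, other pseudocounts, filters, scalings, rule limits, a replicate block and leaving out each library were alternatives. The tests were run on simulated data with the same spread for all genes and FPKM scaled by full library totals. That check does not cover the spread or the scaling of these libraries.

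The genes and lists were chosen with earlier results of these data known. Named genes were the 15 highest before the molt, the 8 with the lowest and the 5 with the highest ratio, the 5 lowest before the molt, the 5 just outside each limit, the 5 most uneven in each stage, those next to each other and those in the study's lists, at most 40 with values. Coordinates and sequences were not used here.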

Additional observations from a re-analysis of the deposited data

How the results depend on the processing

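With all else kept, the number of genes called lower was 280 by limma, 147 at a pseudocount of 5, 5889 at a common FPKM sum, 607 after quantile scaling, 764 with library weights, and 104 to 317 without 1 library (108, 154 and 104 without pre-molt replicates 1, 2 and 3). Same-numbered libraries did not deviate together (correlations -0.03, -0.03 and -0.05). This gives no sign that the numbers pair the crabs, but it cannot exclude a shared collection or batch. With a replicate block, 160 genes were lower, 44 of them among the 48. Of the 48, 35 to 45 were called lower without 1 library, and 47 by DESeq2.

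The rule chose 48 genes, but 22 at the stricter ratio limit tried, 163 at the looser one (0.5), 318 at a common FPKM sum (with 44 of the 48) and 49 to 64 without 1 library (42 to 47 of the 48). The mean pre-molt share of FPKM was 3.31%, but 2.48% at the stricter limit, 7.82% at 0.5, 9.30% at a common sum, 11.2% with all sequences and 2.91% to 4.79% without 1 library. The mean post-molt share was 0.0835%, but 0.0119%, 0.784%, 1.11% and 0.454% in the same settings and 0.0415% to 0.223% without 1 library. The median remaining level was 15.01%, but 2.73%, 36.8%, 19.5% and 11.3% in these settings, 11.1% with a pre-molt mean of at least 50 FPKM and 13.6% to 15.7% without 1 library. Added models were 18.75% of the genes chosen, 6.92% at a common sum and 14.8% to 23.1% without 1 library. The changed limits select other genes by construction, and the cause of the other shifts was not tested. In all, 68 values under alternatives stayed close to the main one and 29 moved. The 68 include every count of the 48 called lower, and nothing is read from these because the same contrast chose the genes. Values labelled close could still differ from the main one, as did the numbers of genes chosen without 1 library. The tally therefore does not measure how firm the results are. Low post-molt fragment numbers limit the remaining levels of the weaker genes.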
